A study of Mus musculus with 6 samples.

Results

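The BCL2 family decides whether a cell keeps its mitochondria intact or undergoes apoptosis, and 10 of its genes were followed here in mouse leukaemic blasts. They were chosen by name and looked up by mouse Entrez gene ID, and all 10 were found among the 24454 genes of the table. The 4 anti-apoptotic members were Bcl2, Bcl2l1 (BCL-XL), Mcl1 and Bcl2l2 (BCL-W), and the 6 pro-apoptotic members were the effectors Bax and Bak1 and the BH3-only genes Bcl2l11 (BIM), Bbc3 (PUMA), Pmaip1 (NOXA) and Bid. All 10 also passed the filter on low values and were among the 12642 genes tested.

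BAX and BAK form pores in the outer mitochondrial membrane that release cytochrome c and start the caspase cascade. The anti-apoptotic proteins bind them and hold them back, and the BH3-only proteins, made or activated under stress, occupy the anti-apoptotic proteins or activate BAX and BAK directly. In acute myeloid leukaemia MCL1 and BCL2 are the best-known survival proteins, and Bcl2, Bcl2l1 and Mcl1 are textbook target genes of STAT3.

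The study set Stat3β TG blasts against wild-type (WT) blasts. Stat3β TG cells were C57BL/6 fetal liver cells carrying Mx1-Cre and an inducible transgene for Stat3β, the short splice form of the transcription factor STAT3, and WT cells came from wild-type littermates. Both were transformed with an MLL-AF9 retrovirus, which carries a fusion oncogene of acute myeloid leukaemia, and both were transplanted into NSG mice (NOD.Cg-PrkdcscidIl2rgtm1Wjl/SzJ), a strain that lacks T, B and NK cells of its own and keeps its own neutrophils and monocytes. All recipients received poly(I:C), the inducer of Mx1-Cre, at week 4, and Venus+ blasts were sorted from bone marrow at week 6. Each group had 3 libraries of unstated donor origin, so the p-values reflect variation among these libraries, which may in part be technical. WT 2 differed from WT 1 and WT 3 in the sex-linked genes Xist and Ddx3y, so the 3 WT libraries were not all repeats of 1 cell sample. Mx1-Cre is not restricted to 1 cell type, and the gene table does not separate Stat3β from full-length Stat3.

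The deposited values were normalized counts, from which 21809788 to 51934498 whole reads per library were recovered. Every member was well covered, from 213 reads for Bbc3 in WT 3 to 30802 for Mcl1 in Stat3β TG 1. The blast genes Ptprc, Hoxa9 and Meis1 were expressed in every library, with Meis1 between 2586 and 4417 normalized counts in Stat3β TG and between 3275 and 3791 in WT. Other genes listed for blasts varied more between libraries. Cd34 had 3726, 4999 and 8057 in Stat3β TG 1 to 3, against 8061, 8029 and 8291 in WT 1 to 3. Kit had 3605, 2889 and 2534 in Stat3β TG, against 3214, 1120 and 4119 in WT. Itgam had 45649, 27328 and 21827 in Stat3β TG, against 32091, 13735 and 23733 in WT. T cell markers summed to between 87.4 and 119 normalized counts in Stat3β TG and between 39.3 and 201 in WT, with Cd3e and Cd8a under 10 in every library. The sum of markers listed for mature neutrophils, with 10 of 10 in the table, was lowest in WT 2. It was 178416 to 264288 in Stat3β TG and 59128 to 195701 in WT. Most of it was Ngp and Camp, while Ly6g lay between 23.0 and 459 and Cxcr2 between 333 and 772. Eosinophil markers, 7 of 7, summed to 6519 to 12046 in Stat3β TG and 9771 to 51502 in WT. Most of this sum was Prg2, with Ccr3 at most 11.4 and Il5ra at most 71.8. Neither sum measures the content of mature cells, and their part in the results was not tested. The libraries also split in a way that the group does not give: Xist stood at 42699 and 45196 normalized counts in WT 1 and WT 3, against 19.1 to 71.6 in Stat3β TG and 835 in WT 2, which carries the Y-linked gene Ddx3y like the Stat3β TG libraries. In bulk RNA, fewer cells of a type and less RNA per cell cannot be told apart.

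None of the 10 members differed between Stat3β TG and WT blasts beyond the spread within the groups. The limma test, with Benjamini-Hochberg adjustment over all 12642 genes at a threshold of 0.05, called 0 members, and 0 members had an unadjusted p under 0.05. Over all tested genes limma called 0%, while 6.1% had an unadjusted p under 0.05 (3.56% with a higher and 2.54% with a lower level in Stat3β TG). The groups did not overlap in 10.8% of tested genes and overlapped in each of the 10 members. On the recovered reads edgeR and DESeq2 called 0 members each, against 0% and 0.134% of all genes. Their members at an unadjusted p under 0.05 also numbered 0, against 6.17% of all genes by edgeR and 7.67% by DESeq2. By sign, the log2 fold change (Stat3β TG over WT) was positive in 6 members and negative in 4, where 51.4% of tested genes were above 0. The median log2 fold change was 0.03 over the members and 0.01 over all tested genes. The smallest adjusted p of a member was 0.668, that of Bcl2l2.

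The split of the libraries by Xist and Ddx3y was examined by leaving out WT libraries. With WT 2 as the only WT library, which shares this trait with Stat3β TG, 0 members and 5.98% of all genes were called, and the smallest adjusted p of a member was 0.117, that of Bcl2l2 (log2 fold change -0.62). With WT 1 as the only WT library, 0 members and 0.0648% of all genes were called, and the log2 fold change of Bcl2l2 was -0.036. Without WT 2 alone, 0 members and 0.04% were called. WT 1 and WT 3 have no Stat3β TG library of their kind, so that this trait and the group cannot be told apart for them.

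**Figure D1:**
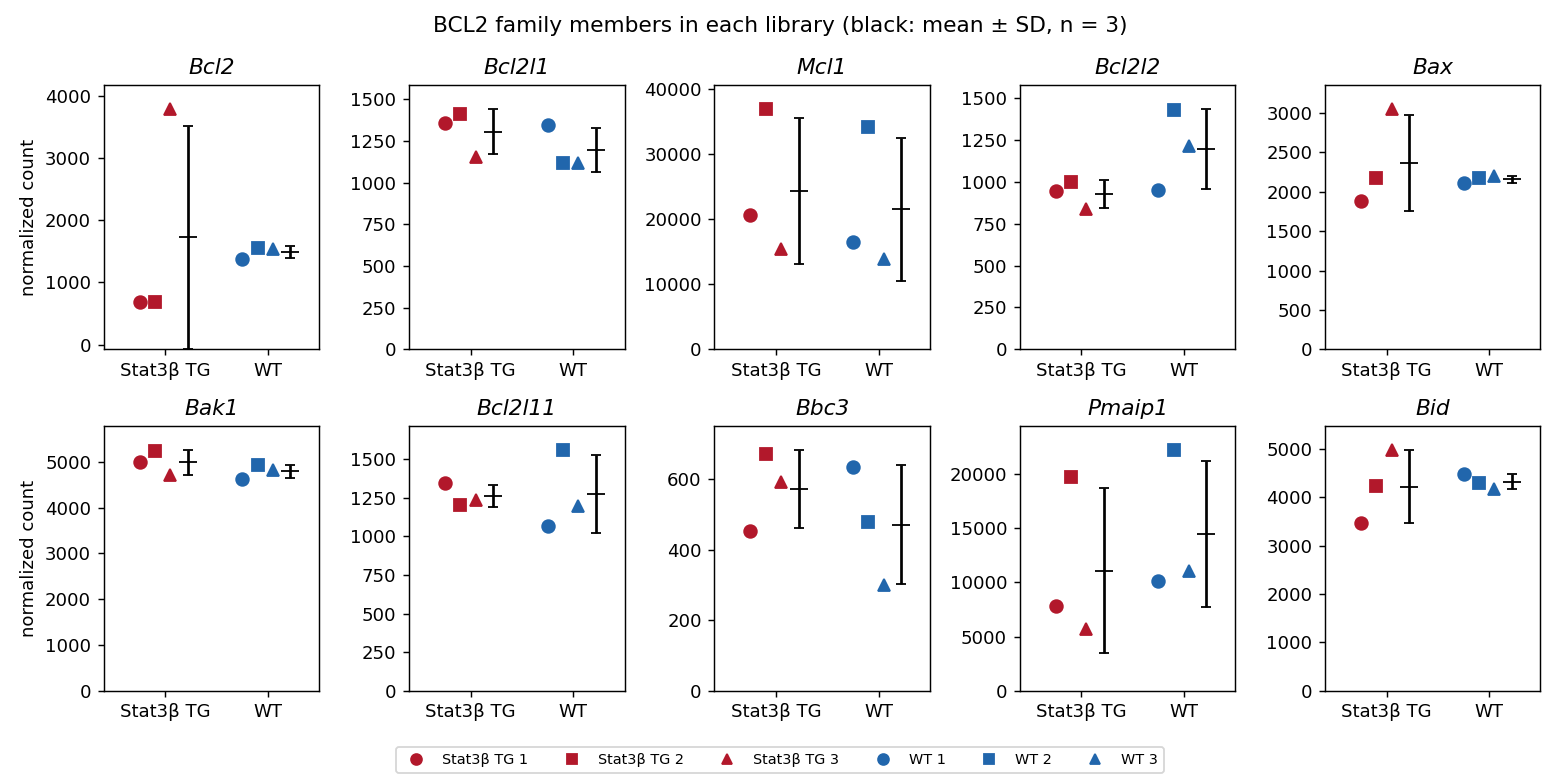
Normalized counts of the 10 members (y axis, linear, 1 panel per gene) in the 3 Stat3β TG and 3 WT libraries; symbols mark the library number, and black bars the mean ± SD. The groups overlap in every panel, Bcl2 reaches 3795 in Stat3β TG 3 alone, and Mcl1 and Pmaip1 are highest in the libraries numbered 2 of both groups.

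The stretches of 250 bases before the annotated start are shown for Bcl2 and Mcl1, the survival genes with the widest spread, and for Bak1, the member with the narrowest. The sequences are those of RefSeq for GRCm38.p6, read 5′ to 3′ on the strand of the gene, with the GC box GGGCGG, in either orientation, in capitals. Starts are those of RefSeq, as are the gene positions given for the members, while exon lengths are those of GENCODE M21. The Mcl1 stretch lies inside the gene as positioned here, which begins upstream of it at 95656944. The reason was not examined.
Bcl2, chr1:106714291-106714540, minus strand: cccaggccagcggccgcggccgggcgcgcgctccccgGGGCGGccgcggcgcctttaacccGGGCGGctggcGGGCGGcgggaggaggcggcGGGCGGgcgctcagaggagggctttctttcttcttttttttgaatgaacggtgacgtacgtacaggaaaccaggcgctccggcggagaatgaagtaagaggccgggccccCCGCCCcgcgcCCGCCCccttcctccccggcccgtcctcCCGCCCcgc
Mcl1, chr3:95658471-95658720, plus strand: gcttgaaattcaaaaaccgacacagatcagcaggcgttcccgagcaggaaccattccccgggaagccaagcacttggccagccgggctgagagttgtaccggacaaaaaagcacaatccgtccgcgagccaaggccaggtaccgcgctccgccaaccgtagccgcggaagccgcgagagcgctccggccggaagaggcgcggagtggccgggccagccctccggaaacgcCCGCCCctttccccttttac
Bak1, chr17:27028628-27028877, minus strand: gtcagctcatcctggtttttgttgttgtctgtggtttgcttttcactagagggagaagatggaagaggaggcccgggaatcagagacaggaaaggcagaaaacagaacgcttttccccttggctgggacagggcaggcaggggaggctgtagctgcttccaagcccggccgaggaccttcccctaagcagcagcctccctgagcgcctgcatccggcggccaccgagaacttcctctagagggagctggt
The Bcl2 stretch held 7 GC boxes, that of Mcl1 held 1 and that of Bak1 held 0. The RefSeq sequences used held 14 such stretches for 9 members, several members having more than 1 start, and none for Pmaip1. As for Mcl1, every stretch of Bcl2l1 and of Bbc3 lay inside the gene as positioned here. The bases before the outer start of these 3 genes were therefore not searched. A GC box lay in 10 of these 14 stretches, which belong to 7 members and in part overlap, and in 32.7% of all 32851 stretches of this length. The STAT site TTCNNNGAA, searched on both strands, was in 0 of the 14, against 7.02% of all, and the E-box CACGTG was in 2 (Bax and Bbc3), against 6.02% of all. The cAMP response element TGACGTCA was in 0 of the 14 and in 1.55% of all. These are matches of letters in a short window and say nothing of binding.

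Bcl2 (Entrez 12043; chr1:106538176-106714290, minus strand, GRCm38 as for all positions), which encodes the founding survival protein of the family, was the member with the widest spread, and its spread lay in the Stat3β TG group. It had 689, 689.5 and 3795 normalized counts in Stat3β TG 1 to 3, against 1382, 1555 and 1537 in WT 1 to 3. In Stat3β TG, 2 values thus lay below all WT values and 1 lay above them, so that the groups overlapped although WT covered only a 1.13-fold range. The log2 fold change was -0.29 with a standard error of 0.61 and a 95% interval of -1.70 to 1.12 (limma adjusted p = 0.873). Without Stat3β TG 3 it was -1.11 (adjusted p = 0.844), without Stat3β TG 1 it was 0.12 and without Stat3β TG 2 it was also 0.12, so that the sign changed with the Stat3β TG library left out. The edgeR estimate was 0.20, since it compares group means, 1724 ± 1793 in Stat3β TG and 1491 ± 95.03 in WT (SD, n = 3 each). The antisense gene D630008O14Rik covers 6.09% of the exon bases of Bcl2.

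Stat3β TG 3 also differed from the other libraries in marker genes. Monocyte and macrophage markers, of which 8 of 8 were in the table, summed to 52250 normalized counts in Stat3β TG 3, with a range of 40133 to 52250 in Stat3β TG and 42626 to 46926 in WT; Ms4a7 was under 10 in every library. B cell markers, with 6 of 6 in the table, ranged from 1211 to 2072 in Stat3β TG, again highest in Stat3β TG 3, and from 1233 to 1803 in WT; almost all of that sum was Cd79b, while Ms4a1 and Pax5 were under 10 everywhere. Mpo, a granule gene of immature myeloid cells, was at 9999, 26057 and 61536 in Stat3β TG 1 to 3, and at 50082, 12287 and 34408 in WT. The part of these cell types in the Bcl2 value was not tested.

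Mcl1 (Entrez 17210; chr3:95656944-95663179, plus strand), whose short-lived protein holds back BAK and BIM in myeloid cells, was the member with the highest value in every library. It had 20615, 36970 and 15378 normalized counts in Stat3β TG 1 to 3, against 16507, 34204 and 13922 in WT 1 to 3. The group ranges were almost the same, with 1 library far above the others in each. The log2 fold change was 0.19 with a standard error of 0.41 and a 95% interval of -0.77 to 1.15 (limma adjusted p = 0.877).

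Bcl2l1 (Entrez 12048; chr2:152758732-152833803, minus strand), which encodes BCL-XL, varied little. Its values were 1357, 1410 and 1153 normalized counts in Stat3β TG, against 1347, 1121 and 1120 in WT. WT 1 lay with Stat3β TG 1 and 2, and Stat3β TG 3 lay near WT 2 and WT 3, and the log2 fold change was 0.13 with a 95% interval of -0.25 to 0.51 (limma adjusted p = 0.796). Gene-level counts sum the long and short splice forms of Bcl2l1, Mcl1 and Bcl2l11, which differ in their effect on survival.

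Bcl2l2 (Entrez 12050; chr14:54883366-54890858, plus strand), the gene of BCL-W, came closest to a group difference among the members. It had 946, 999.8 and 836 normalized counts in Stat3β TG, against 948, 1425 and 1212 in WT. WT 1, at 948, lay inside the Stat3β TG range, and WT 2 and WT 3 lay above it. The log2 fold change was -0.35 with a standard error of 0.20 and a 95% interval of -0.80 to 0.10 (limma adjusted p = 0.668). It was -0.51 without WT 1 and -0.21 without WT 2, uncalled in both. Its exons share 594 bases, 13.3% of their length, with Gm20521, annotated on the same strand, so reads there may be assigned to either gene or to none.

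Bak1, a pore-forming effector, was the steadiest member. Its gene (Entrez 12018; chr17:27019812-27028627, minus strand) had 4997, 5244 and 4710 normalized counts in Stat3β TG, against 4622, 4921 and 4817 in WT, and 99.1% of tested genes had a larger within-group SD on the log2 scale than its 0.06. Its log2 fold change was 0.06 with a 95% interval of -0.23 to 0.35 (limma adjusted p = 0.880). Bax, the other effector (Entrez 12028; chr7:45461695-45466903, minus strand), had 1880, 2174 and 3051 in Stat3β TG, against 2109, 2170 and 2195 in WT, so that WT spanned a 1.04-fold range and Stat3β TG a 1.62-fold range around it. The log2 fold change of Bax was 0.10 with a 95% interval of -0.34 to 0.55 (limma adjusted p = 0.856), and -0.09 without Stat3β TG 3. Both genes share exon bases with another annotated gene, Bak1 with Ggnbp1 on the opposite strand and Bax with Gm45808 on the same strand, and the handling of strand is not given in the sources used here.

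Pmaip1 (Entrez 58801) encodes NOXA, the BH3-only protein that binds MCL1 most selectively, and its values followed the order of Mcl1 in part. It had 7838, 19757 and 5682 normalized counts in Stat3β TG, against 10113, 22206 and 11074 in WT. As for Mcl1, the library numbered 2 was the highest of each group. The log2 fold change was -0.50 with a standard error of 0.48 and a 95% interval of -1.62 to 0.62 (limma adjusted p = 0.733). It was -1.02 without Stat3β TG 2 and -0.12 without Stat3β TG 3, and it stayed uncalled in both.

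The other BH3-only genes had small differences. Bcl2l11 (Entrez 12125; chr2:128126038-128162547, plus strand), which encodes BIM, an activator that binds all the survival proteins, had 1343, 1204 and 1234 normalized counts in Stat3β TG, against 1067, 1558 and 1196 in WT, so that the Stat3β TG values lay inside the WT range. Its log2 fold change was 0.00 with a 95% interval of -0.42 to 0.42 (limma adjusted p = 0.998). Bid (Entrez 12122; chr6:120893119-120917062, minus strand), whose protein links death receptors to mitochondria once caspase-8 cuts it, had 3463, 4228 and 4969 in Stat3β TG, against 4487, 4302 and 4174 in WT. Here the WT values lay inside the Stat3β TG range, and the log2 fold change was -0.05 with a 95% interval of -0.43 to 0.33 (limma adjusted p = 0.922). Bid shares 628 exon bases, 17.7% of its exon length, with Bcl2l13 on the opposite strand.

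Bbc3 (Entrez 170770; chr7:16308398-16318334, plus strand), which encodes PUMA, a p53-induced activator, had the lowest counts of the members. Its values were 454, 672 and 591 normalized counts in Stat3β TG, against 636, 479 and 299.7 in WT, with WT 3 the lowest and the groups overlapping. The log2 fold change was 0.33 with a standard error of 0.31 and a 95% interval of -0.39 to 1.05 (limma adjusted p = 0.731). It was 0.58 without WT 1 and 0.03 without WT 3, uncalled in both.

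**Figure D2:**
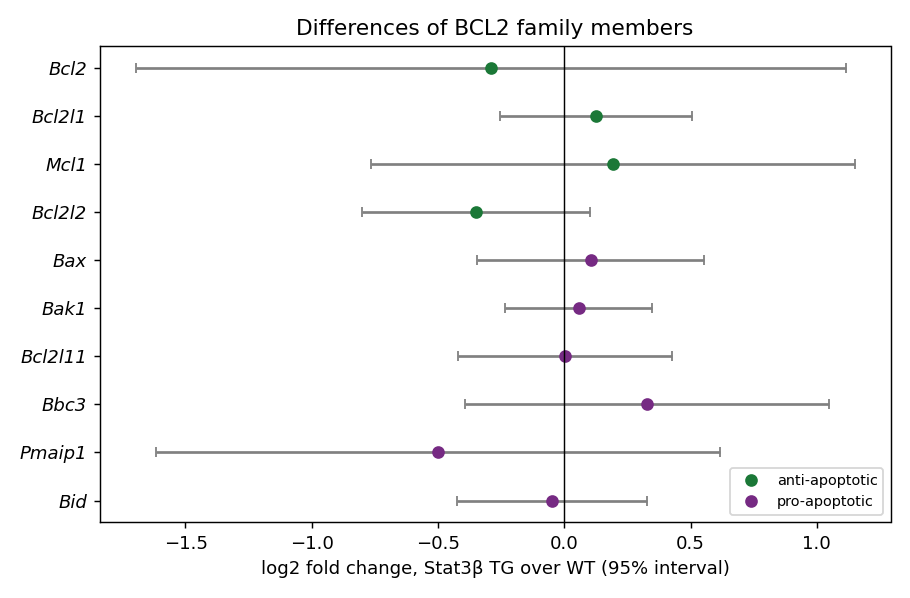
Log2 fold change, Stat3β TG over WT (x axis), for the 10 members, with 95% intervals from limma; green points are anti-apoptotic and purple points pro-apoptotic members. Every interval includes 0, and those of Bcl2, Pmaip1 and Mcl1 are the widest, that of Bcl2 running from -1.70 to 1.12.

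The members did not share 1 pattern over the libraries. Bcl2, Bax and Bid each had their lowest value in Stat3β TG 1 and their highest in Stat3β TG 3. Bcl2l2, Bcl2l11 and Pmaip1 were highest in WT 2, and Bcl2l1, Mcl1, Bak1 and Bbc3 were highest in Stat3β TG 2. Bcl2, Pmaip1 and Mcl1 had pooled within-group SDs of 1.01, 0.79 and 0.67 on the log2 scale, and 7.63%, 12.8% and 17.2% of tested genes had a larger one.

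**Figure D3:**
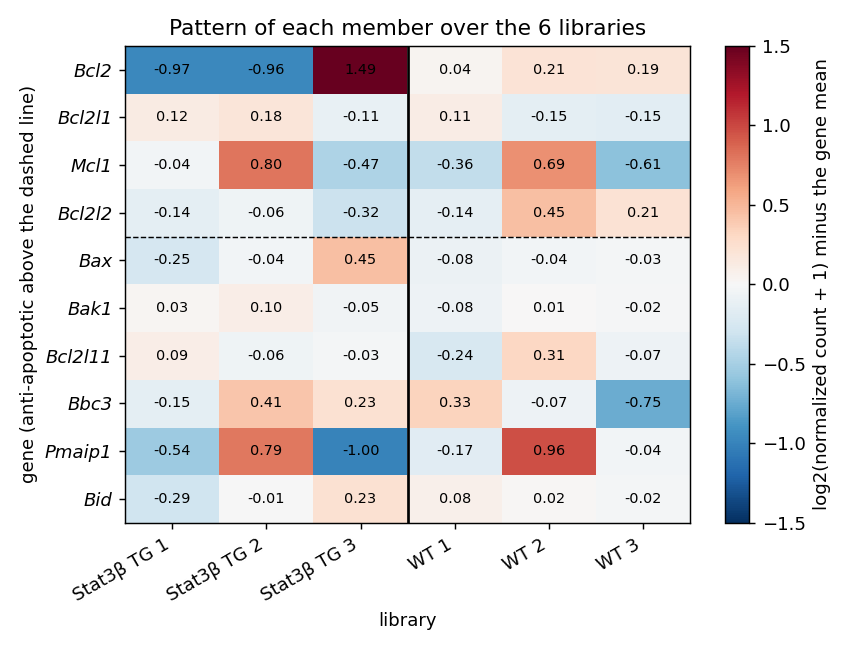
Heat map of log2(normalized count + 1) minus the mean of the gene over 6 libraries, with genes in rows and libraries in columns; the solid line parts Stat3β TG from WT and the dashed line anti-apoptotic from pro-apoptotic members. Bcl2 stands at 1.49 in Stat3β TG 3 and at -0.97 and -0.96 in Stat3β TG 1 and 2, while Mcl1 and Pmaip1 are highest in Stat3β TG 2 and WT 2.

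Genes whose centred log2 values differed least from those of a member, over 6 libraries and 10268 genes with a mean of at least 100, were named by a rule. For Mcl1 they were Zfp36, which encodes an mRNA decay factor, 2310015A10Rik and Fos, a subunit of the AP-1 factor, with root mean square differences of 0.18, 0.19 and 0.20 on the log2 scale. Fos had 50927, 91644 and 36453 normalized counts in Stat3β TG, against 55443, 81822 and 43433 in WT, and was thus highest in the same libraries as Mcl1. Pmaip1 ranked at place 126 by likeness to Mcl1, with a difference of 0.40.

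For Bcl2 the 3 most alike genes were Met, a receptor tyrosine kinase, Abcb1b, a multidrug efflux pump, and Plekho1, with differences of 0.20, 0.20 and 0.29. Met had 199, 189.6 and 1567 normalized counts in Stat3β TG, against 436, 433 and 507 in WT, which is the same excess in Stat3β TG 3 over the other libraries. Bcl2l11 was most like Slc30a7, Atg9a and Zdhhc1, with differences of 0.01 to 0.03, and Bid was most like Akr1a1, Zmat2 and Rpl27a, with differences of 0.04 to 0.05. The variation of these 2 members around their own means had a root mean square of 0.17 for Bcl2l11 and 0.16 for Bid.

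To compare levels between genes, counts were divided by the exon length of each gene, taken as the union of its exons in GENCODE M21 (GRCm38). On this scale of normalized counts per kb, Mcl1 was first in all 6 libraries, at 7116 ± 3295 in Stat3β TG and 6303 ± 3230 in WT (SD, n = 3 each). Pmaip1 came next, at 4060 ± 2775 in Stat3β TG and 5294 ± 2460 in WT, and was also above Bak1 in all 6. Then followed Bak1 at 2070 ± 111 in Stat3β TG and 1989 ± 62.9 in WT, Bax at 1503 ± 387 and 1369 ± 28.0, and Bid at 1189 ± 212 and 1217 ± 44.4, each above the next in 6 of 6 libraries.

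The remaining 5 genes lay much lower and their order was not firm. Their means over the 6 libraries were 273 normalized counts per kb for Bcl2l1, 246 for Bbc3, 238 for Bcl2l2, 176 for Bcl2 and 158 for Bcl2l11. Bcl2l1 was above Bbc3 in 3 of 6 libraries, Bbc3 above Bcl2l2 in 4, Bcl2l2 above Bcl2 in 5 and Bcl2 above Bcl2l11 in 3. Unions of exons overstate the length of genes that use a short form, so the scale is approximate.

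Mcl1 made up most of the survival transcripts on the per kb scale. Its share of the 4 anti-apoptotic members was 91.2%, 94.7% and 84.1% in Stat3β TG 1 to 3, against 88.0%, 93.2% and 85.6% in WT 1 to 3. Pmaip1 made up 38.3%, 58.1% and 26.6% of the 6 pro-apoptotic members in Stat3β TG, against 42.8%, 61.7% and 45.5% in WT. The ratio of the anti-apoptotic to the pro-apoptotic sum per kb was 0.883, 0.918 and 0.686 in Stat3β TG, against 0.634, 0.815 and 0.534 in WT, and the groups overlapped. Without Mcl1 and Pmaip1 that ratio was 0.126, 0.116 and 0.149 in Stat3β TG, and 0.133, 0.145 and 0.141 in WT.

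Giving every gene the same weight, anti-apoptotic members did not stand apart from pro-apoptotic ones. The mean log2 value of the 4 anti-apoptotic members minus that of the 6 pro-apoptotic members was -0.17, -0.31 and 0.09 in Stat3β TG, against -0.16, 0.01 and -0.03 in WT. The group means were -0.13 ± 0.20 in Stat3β TG and -0.06 ± 0.09 in WT (SD, n = 3 each), a difference of -0.07, which is smaller than either SD. The median log2 fold change was -0.08 over the 4 anti-apoptotic and 0.03 over the 6 pro-apoptotic members, and the signs were split in both, with 2 of 4 and 4 of 6 positive.

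Within a library the ratio of a survival gene to a death gene is free of gene length when groups are compared, and all 24 such pairs were formed. In 3 of the 24 pairs, 12.5%, the groups did not overlap, where the same was true of 11.1% of all pairs of tested genes above 0 in every library, so this share is near the background. The ratio of Mcl1 to Pmaip1, whose proteins bind each other, was 2.63, 1.87 and 2.71 in Stat3β TG, against 1.63, 1.54 and 1.26 in WT, higher in each Stat3β TG library than in any WT library. That of Bcl2l2 to Bak1 was 0.189, 0.191 and 0.178 in Stat3β TG, against 0.205, 0.290 and 0.252 in WT. That of Bcl2l2 to Bcl2l11 was 0.705, 0.830 and 0.677 in Stat3β TG, against 0.889, 0.915 and 1.01 in WT. Both ratios with Bcl2l2 were lower in every Stat3β TG library.

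**Figure D4:**
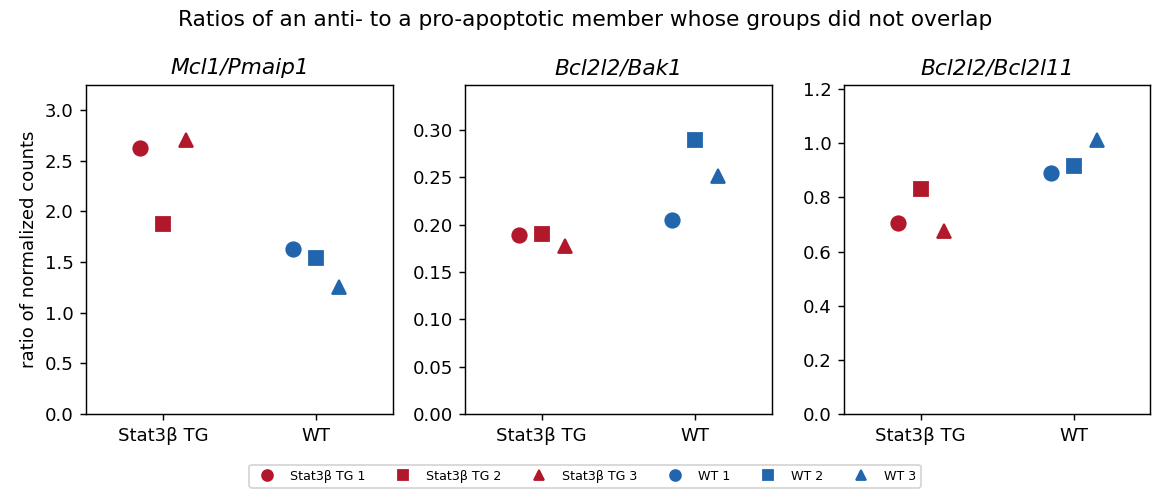
Ratio of the normalized counts of 2 members (y axis, linear, from 0) in each library, for the 3 of 24 pairs of an anti-apoptotic and a pro-apoptotic member whose groups did not overlap. The ratio of Mcl1 to Pmaip1 lies between 1.87 and 2.71 in Stat3β TG and between 1.26 and 1.63 in WT.

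Around the members, 9 lists of other survival and death genes held 83 genes, of which 77 were tested. limma called 0 of the 77, with 2 at an unadjusted p under 0.05 (Htra2 and Trp53), which is below the 6.1% of all tested genes. By edgeR 0 were called and 2 had an unadjusted p below that value (Htra2 and Pim1). The same counts held for DESeq2, with Htra2 and Trp53. The median log2 fold change was 0.01. In 5 genes the groups did not overlap with Stat3β TG higher, and in 3 with Stat3β TG lower, against 5.87% and 4.92% of all tested genes.

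Among the other BCL2 proteins, 0 of 3 tested anti-apoptotic and 0 of 7 tested pro-apoptotic genes passed. The A1 genes Bcl2a1a and Bcl2a1b, near-identical copies whose counts are uncertain, were low, with Bcl2a1b at 64.9, 133 and 42.1 normalized counts in Stat3β TG, against 46.8, 32.5 and 56.3 in WT, and Bcl2a1a at 21.6 ± 6.34 in Stat3β TG and 14.2 ± 11.1 in WT (SD, n = 3 each). Bad, a BH3-only gene whose protein is silenced by survival kinases, had 1356, 1562 and 1589 in Stat3β TG, against 1417, 1327 and 1182 in WT (log2 fold change 0.20, limma adjusted p = 0.686). Bcl2l12 averaged 777 ± 72.3 in Stat3β TG and 616 ± 155 in WT, Bcl2l14 88.5 ± 37.5 and 137 ± 38.0, and Bcl2l13 2457 ± 307 and 2720 ± 214 (SD, n = 3 each). Hrk was listed at 0 in all 6 libraries.

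Of the apoptosome and caspase genes 0 of 8 passed. Casp9, the initiator caspase of the apoptosome, had 1970, 1758 and 1831 normalized counts in Stat3β TG, against 1877, 1134 and 1033 in WT (limma adjusted p = 0.668). WT 1 lay inside the Stat3β TG range and WT 2 and WT 3 below it. Casp2 had 4017, 4399 and 4135 in Stat3β TG, against 4421, 4779 and 5071 in WT, without overlap (log2 fold change -0.18, limma adjusted p = 0.675). Apaf1, the scaffold of the apoptosome, averaged 6721 ± 803 in Stat3β TG and 5811 ± 1248 in WT (SD, n = 3 each).

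Htra2, a mitochondrial protease that counters the inhibitors of apoptosis once released, had 2085, 1913 and 2200 normalized counts in Stat3β TG, against 1736, 1317 and 1618 in WT. All Stat3β TG values lay above all WT values, with a log2 fold change of 0.41, a standard error of 0.16 and a limma adjusted p of 0.668. Diablo, with the same role, had 1164, 1172 and 1193 in Stat3β TG, against 1277, 1285 and 1203 in WT, again without overlap but in the other direction and by a log2 fold change of -0.09. Birc6, a giant inhibitor of apoptosis, averaged 6564 ± 1040 in Stat3β TG and 8173 ± 2322 in WT (SD, n = 3 each). Of the 7 genes of that list 0 passed.

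In the list of death receptor and necroptosis genes 0 of 12 passed, with 9 of 12 higher in mean log2 level and a median log2 fold change of 0.22, where 51.4% of all tested genes were above 0. Tnfrsf1a, the main receptor for TNF, had 7388, 7260 and 6802 normalized counts in Stat3β TG, against 6739, 5932 and 5197 in WT, and Tnfrsf1b averaged 4297 ± 913 in Stat3β TG and 3396 ± 302 in WT (SD, n = 3 each). Tnfrsf10b, the mouse TRAIL receptor, was low, at 10.7, 29.6 and 28.1 in Stat3β TG, against 34.8, 81.2 and 32.4 in WT. These 3 were named for having the smallest p of the list. In all 3 the groups did not overlap, which such a choice favours, and each had a limma adjusted p of 0.668. Over the 12 genes of the list, 2 had groups without overlap and Stat3β TG higher, and 1 with Stat3β TG lower. These shares were 5.87% and 4.92% over all tested genes.

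For the 7 genes of mitochondrial partners, 0 passed. Aifm1, a mitochondrial flavoprotein that can be released to the nucleus, had 1555, 1507 and 1593 normalized counts in Stat3β TG, against 1457, 1175 and 1241 in WT, without overlap (limma adjusted p = 0.668). Opa1 and Dnm1l, dynamin-like proteins that act on mitochondrial shape, had log2 fold changes of -0.32 and -0.25, both with the groups overlapping.

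Trp53, the gene of p53 and a direct inducer of Bax, Bbc3 and Pmaip1, had 4394, 4602 and 4773 normalized counts in Stat3β TG, against 4353, 1549 and 2593 in WT. WT 1 lay just below the Stat3β TG values and WT 2 and WT 3 far below, and the log2 fold change was 0.82, its standard error 0.33 and its limma adjusted p 0.668. Mdm2, which is induced by p53 and degrades it, was at 3668, 4346 and 3332 in Stat3β TG, against 3436, 4149 and 3653 in WT, with a log2 fold change of 0.01. Ppp1r13b, a p53 cofactor that favours its death targets, averaged 628 ± 119 in Stat3β TG and 429.9 ± 121 in WT, and Ppp1r13l, a p53 inhibitor, 196 ± 9.88 and 151 ± 57.1 (SD, n = 3 each). Of 7 tested genes of p53 and its regulators 0 passed, with a median log2 fold change of 0.44.

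No transcription factor or kinase list passed either, with 0 of 12 factors acting on BCL2 family genes and 0 of 14 tested regulators of MCL1, BIM and BAD protein. Stat3 averaged 9670 ± 1555 normalized counts in Stat3β TG and 11683 ± 4086 in WT (SD, n = 3 each; limma adjusted p = 0.771). Foxo3, which activates Bcl2l11, averaged 902 ± 113 in Stat3β TG and 1136 ± 328 in WT, Foxo1 264 ± 79.6 and 340.1 ± 106, and Stat5a 2310 ± 104 and 2564 ± 284 (SD, n = 3 each). Huwe1, a ubiquitin ligase of MCL1, had 11087, 9313 and 9239 in Stat3β TG, against 10113, 13368 and 14826 in WT (log2 fold change -0.36, limma adjusted p = 0.668). Dynll1, a dynein light chain that binds BIM, averaged 2642 ± 524 in Stat3β TG and 1969 ± 497 in WT, and Mapk3, an ERK kinase that phosphorylates BIM, 7607 ± 536 and 6085 ± 1262 (SD, n = 3 each).

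Leaving out WT 1 changed which genes around the members passed. Without it limma called 296 of 12474 genes, 2.37%, and 3 of 76 pathway genes, while the count of members stayed at 0. These 3 were Casp9 (log2 fold change 0.77, limma adjusted p = 0.0496), Trp53 (1.19, adjusted p = 0.0475) and Pim1 (-2.32, adjusted p = 0.0411), all chosen here after their values were seen. Pim1, a STAT-induced kinase that phosphorylates BAD, had 1349, 2418 and 1133 normalized counts in Stat3β TG, against 853, 6754 and 8834 in WT. Its WT 1 value lay below every Stat3β TG value and the other two far above.

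**Figure D5:**
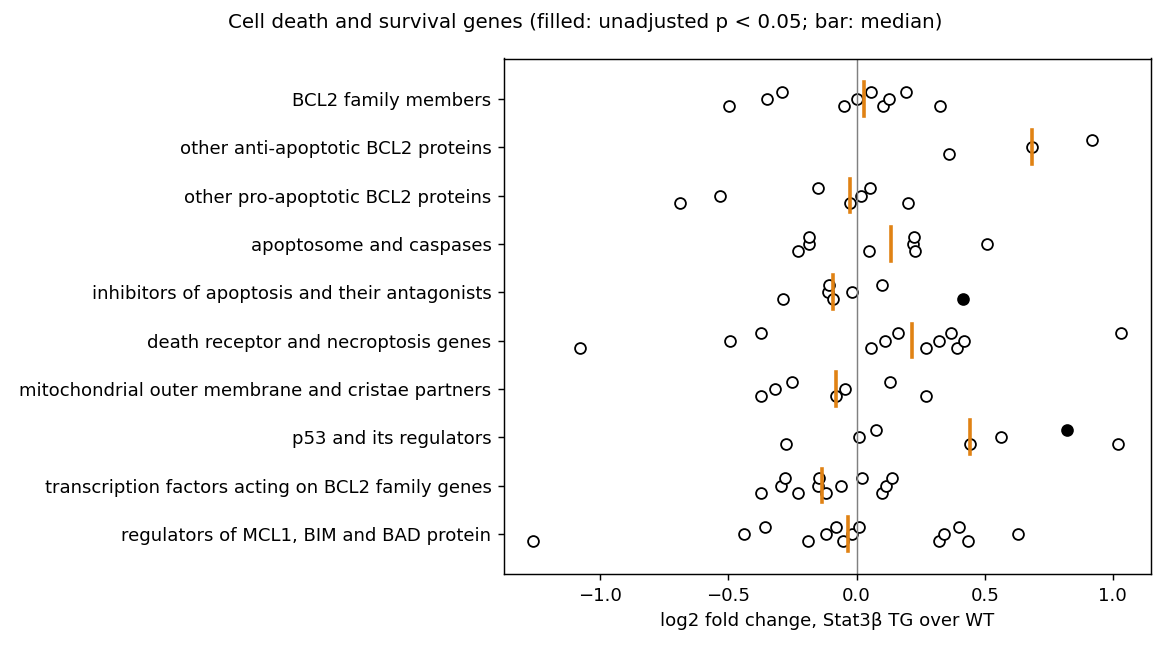
Log2 fold change, Stat3β TG over WT (x axis), for the 10 members and the 77 tested genes of the 9 lists (rows); each circle is a gene, filled where the unadjusted limma p is under 0.05, and the orange bar is the median of the list. The members centre on 0.03, and the 2 filled circles are Htra2 and Trp53.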

How the data were processed

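RNA sequencing measured transcript levels in 3 Stat3β TG and 3 WT libraries, grouped by their titles. The submitters' processing notes name STAR, FastQC, DESeq2 and the build GRCm38 (mm10), without versions. Gene counter, strand handling and annotation: not given in the sources used. The deposited values, a signal in the units of normalized counts, are whole multiples of 1 step per library (100% of 146724 values within 0.001), from which whole reads were recovered. Of 24454 Entrez IDs 24376 had a symbol in RefSeq (GRCm38.p6).

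Tested genes, which reached 10 normalized counts in at least 3 libraries, were compared on log2(normalized count + 1) with limma 3.58.1 (trend, robust, two-sided, Benjamini-Hochberg over 12642 genes) in R 4.3.3; fold changes are on that scale. edgeR 4.0.16 (quasi-likelihood, TMM) and DESeq2 1.42.0 on recovered reads, other pseudocounts, filters and scalings, a replicate block and left-out libraries were alternatives. Scripts were tested on simulated counts. Intervals are limma's, at 95%. Named were all members, Stat3, up to 3 genes per list with the smallest p, and the 3 genes most like Bcl2, Mcl1, Bcl2l11 and Bid; Pim1, Mdm2, Hrk and the single marker genes were named after their values were seen. The members and lists were chosen with earlier results of these data known. A count of 3 reads, the limit a count of 0 allows, equals 1.69 to 4.22 normalized counts and covers counting error only.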

Additional observations from a re-analysis of the deposited data

How the results depend on the processing

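No member passed the threshold in any of 17 alternatives, and the smallest adjusted p of a member was 0.117. The count of genes called over all genes was 0 with other pseudocounts, filters, TMM or quantile scaling, edgeR or the replicate block, 17 with DESeq2, and 0 to 296 with 1 library left out, the highest without WT 1 and 5 without WT 2. It was 8 without WT 2 and WT 3 and 736 without WT 1 and WT 3, fits that leave 1 WT library, assumed to vary like the others. Called pathway genes numbered 0 to 3 with 1 library left out, and 1 (Trp53) without WT 1 and WT 3. With the replicate block, 0 genes and 0 members were called. The deviations of same-numbered libraries correlated at 0.14, 0.099 and -0.11, and those of differently numbered libraries at -0.20 to 0.14. With 3 libraries a group, these values cannot decide whether the replicate numbers pair the libraries.

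Of 170 member values 19 changed sign, none of them called. Bcl2 was 0.20 by edgeR and by DESeq2, and -1.11 to 0.12 with 1 library left out; the cause of the edgeR and DESeq2 sign is that both compare group means. Bcl2l11, at 0.00, was -0.0053 with TMM, -0.021 with quantile scaling, -0.022 by edgeR, -0.023 by DESeq2 and -0.31 without WT 1 and WT 3, and -0.12 to 0.16 with 1 library left out. Mcl1 was -0.59 without WT 1 and WT 3 and -0.16 to 0.58 with 1 left out, where it was negative without Stat3β TG 2 or WT 3. Without WT 2 and WT 3, Bcl2l1 was -0.050 and Bbc3 -0.17. With 1 library left out, Bax ranged from -0.094 to 0.26 and Bid from -0.17 to 0.086. Bcl2l2, Bak1 and Pmaip1 kept their sign in all 17, though Bcl2l2 ranged from -0.62 without WT 1 and WT 3 to -0.036 without WT 2 and WT 3. The anti-apoptotic minus pro-apoptotic difference lay between -0.18 and 0.02 with 1 library left out, and was 0.03 by edgeR. Except where stated, the cause was not tested. With 3 libraries a group, the 95% intervals of the members, which are not adjusted for the number of genes, leave a wide range of differences compatible with the data.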

Other observations

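Ddit3, which encodes CHOP, had 579, 1383 and 516 normalized counts in Stat3β TG 1 to 3, against 575, 1137 and 861 in WT 1 to 3. Atf4, a factor translated under stress, had 15714, 22879 and 13169 in Stat3β TG, against 17349, 20266 and 17288 in WT. Cdkn1a, the cell cycle inhibitor p21, had 1873, 3587 and 1961 in Stat3β TG, against 2028, 3520 and 3284 in WT. The library numbered 2 was the highest of its group in each of these 3 genes, which were chosen after their values were seen. Other factors on the same lists had another order: Trp53 was lowest in WT 2, at 1549, and Foxo3 was lowest of its group in Stat3β TG 2, at 794. In WT 2, however, Foxo3 was the highest of its group, at 1421. No cause was tested.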
